A study of Homo sapiens with 2 samples.

Results

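The E proteins and their ID inhibitors were followed as 7 listed genes, namely the E protein genes TCF3, TCF4 and TCF12 and the inhibitor genes ID1, ID2, ID3 and ID4, and all 7 were found by gene ID among the 57773 genes of the files. Read counts came from total RNA of REH and 697, established lines of BCP-ALL, the acute lymphoblastic leukemia of B-cell precursors, which were grown under the same conditions without any added agent. A single library was made from each. REH is ETV6/RUNX1-positive with its other ETV6 allele deleted. The line 697 is ETV6/RUNX1-negative. Since each line was sequenced once, the variation between cultures is unknown, no p-value is given, and every interval covers counting error only.

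E proteins are basic helix-loop-helix (bHLH) transcription factors that bind E-box DNA as dimers, with each other or with tissue-restricted bHLH partners. In B-cell precursors they switch on the lineage program, including immunoglobulin rearrangement and the surrogate light chain. ID proteins have the helix-loop-helix but not the basic region, so an E protein paired with an ID protein cannot bind DNA, and the balance of both families sets how much E protein is free to act.

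The REH library held 45188375 reads in genes and the 697 library 41097497. The lineage of both lines was checked against B-lineage markers, of which 9 of 10 were matched by ID and had reads in both libraries. Both lines are BCP-ALL, so the presence of these reads cannot tell one label from the other. The summed level of the 9 markers was 4103 CPM, the depth-scaled read count, in REH and 7683 CPM in 697. DNTT alone gave 1142 CPM of this sum in REH and 4433 CPM in 697. Of the 9 markers, 4 had a log2 ratio of REH over 697 above 0 and 5 below 0. VPREB1, a surrogate light chain gene, was the marker that was nearly missing, with 3 reads in REH and 10039 in 697. Summed markers of T cells (1.21 and 0.0271 CPM), erythroid cells (0.418 and 0.379 CPM) and NK cells (2.61 and 14.7 CPM) were low, with CD3D and CD2, HBA1 and HBB, and NCAM1 at 0 reads in both lines. Other markers of these cells had reads, among them CD3E (45 in REH and 0 in 697) and NKG7 (123 and 542). The myeloid markers summed to 253 CPM in REH and 2.25 CPM in 697, nearly all of it from MPO (12643 and 12 reads), while ELANE had 0 reads. Stromal markers summed to 33.3 and 64.7 CPM, with COL1A2 and COL3A1 at 0 reads. This sum came from PDGFRB (1197 reads in REH and 2005 in 697) and COL1A1 (477 and 387 reads). The part of these genes in the results below was not tested. In bulk RNA, fewer cells with a transcript and less transcript per cell cannot be told apart.

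REH had the higher ratio of E protein to ID reads. The 3 E protein genes together had 48473 reads in REH and 50444 reads in 697, before scaling for depth. As CPM, TCF4 (102 and 381) and TCF12 (191 and 276) were lower in REH, while TCF3 (671 and 708) was close. The 4 ID genes together had 1789 reads in REH and 4516 reads in 697. E protein reads thus outnumbered ID reads 27.1 to 1 in REH (95% counting interval 25.8 to 28.4) and 11.2 to 1 in 697 (10.8 to 11.5). The log2 ratio of E protein to ID reads was 4.76 in REH and 3.48 in 697, and it was higher in REH by 1.28 (exact conditional interval 1.20 to 1.36). This comparison is made within each library and does not depend on how the libraries were scaled. It concerns transcript reads, and the amounts of E and ID protein were not measured. ID reads made up 3.56% of the reads of both families in REH (exact Clopper-Pearson interval 3.40% to 3.73%) and 8.22% in 697 (7.99% to 8.45%).

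The MANE Select transcript, the reference isoform of a gene, is longer for the E protein genes (4735 to 8041 bases) than for the ID genes (950 to 3873 bases), and longer transcripts give more reads per molecule, so the balance was also taken per kb. Per kb of summed exon, the E protein to ID ratio was 5.54 in REH and 1.91 in 697. Per kb of the MANE Select transcript it was 5.05 and 1.91. The E protein sum therefore stayed above the ID sum in both lines on each scale, and the ratio in REH exceeded that in 697 by 1.54 and 1.40 on the log2 scale.

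The ratio rested on TCF3 and ID3, each the leading gene of its family. When TCF3 was left out, E protein reads outnumbered ID reads 8.25 to 1 in REH and 5.37 to 1 in 697, and the log2 difference was 0.62 (interval 0.53 to 0.70). Per kb of summed exon without TCF3, the sums of TCF4 plus TCF12 and of the ID genes were nearly equal in REH (ratio 1.02), and the ID sum was the larger in 697 (ratio 0.525). Per kb of the MANE Select transcript the ratios without TCF3 were 1.20 and 0.732. Without ID3, only 138 ID reads were left in REH and 192 in 697, and the log2 difference was 0.42 (interval 0.10 to 0.75). Without TCF4 it was 1.59 (interval 1.51 to 1.67).

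**Figure D1:**
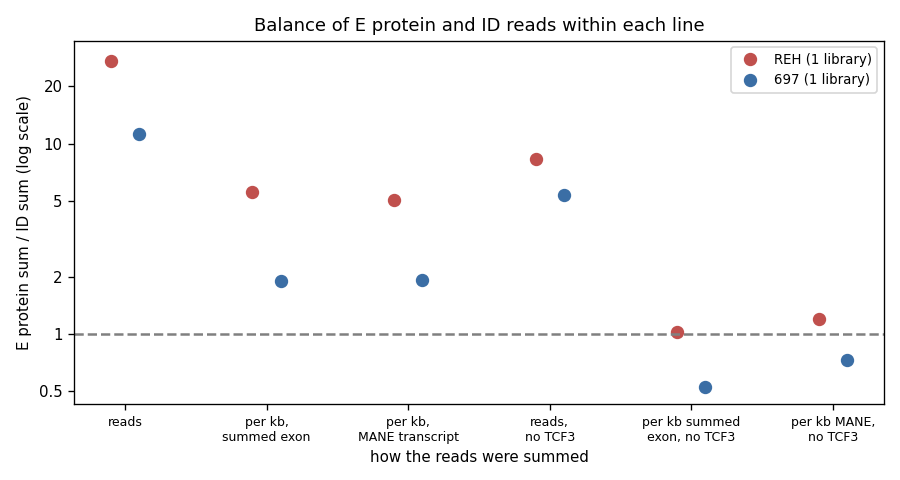
Ratio of summed E protein to summed ID values (log axis) in the REH and 697 libraries, as reads, per kb of summed exon or per kb of the MANE Select transcript, with and without TCF3; bars, mostly hidden by the points, are 95% counting intervals of the read ratios and the dashed line marks equal sums. REH lies above 697 in all 6 settings shown, and 697 falls below 1 only per kb and without TCF3.

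TCF3, which encodes the main E proteins of B-cell precursors through alternative bHLH exons, was the most abundant member in both lines. It lies on chromosome 19 (1609291 to 1652615, GRCh38, minus strand). It had 33705 reads (671 CPM) in REH and 26175 reads (708 CPM) in 697. The libraries were close at this gene, with a log2 ratio of REH over 697 of -0.08 (interval -0.10 to -0.06), which became 0.23 without TMM scaling. Per kb of summed exon TCF3 reached 105 CPM in REH and 111 CPM in 697, at percentiles 98.8 and 98.1 of the 13489 protein-coding genes compared. The read counts of a gene separate neither its splice forms nor its alleles. HLF, a known fusion partner of TCF3 in leukemia, had 0 reads in REH and 3 in 697.

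TCF4, which encodes the E protein best known from plasmacytoid dendritic cells, showed the largest difference among the E protein genes. This gene on chromosome 18 (55222185 to 55664787, minus strand) had 5151 reads (102 CPM) in REH and 14061 reads (381 CPM) in 697. The level in 697 was 3.71-fold that in REH, a log2 ratio of -1.89 (interval -1.94 to -1.85). TCF12, which encodes the E protein HEB, differed less. It lies on chromosome 15 (56918623 to 57299281, plus strand) and had 9617 reads (191 CPM) in REH and 10208 reads (276 CPM) in 697, a log2 ratio of -0.53 (interval -0.57 to -0.49). TCF4 and TCF12 were thus lower in REH under every scaling run, while the ratio of TCF3 changed sign with the scaling (-0.11 to 0.23).

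The makeup of the E protein pool differed between the lines mainly in the shares of TCF3 and TCF4. TCF3 gave 69.5% of E protein reads in REH (interval 69.1% to 69.9%) and 51.9% in 697 (51.5% to 52.3%). TCF4 gave 10.6% in REH (10.4% to 10.9%) and 27.9% in 697 (27.5% to 28.3%). The share of TCF12 was close in both, at 19.8% (19.5% to 20.2%) and 20.2% (19.9% to 20.6%). Per kb of summed exon the TCF3 share was 81.6% and 72.5%, and per kb of the MANE Select transcript 76.3% and 61.8%. The TCF4 share depended on the length used, since its many alternative exons sum to 29166 bases against 8041 bases for its MANE Select transcript. It was 2.72% and 8.50% per kb of summed exon and 6.86% and 19.5% per kb of the MANE Select transcript.

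**Figure D2:**
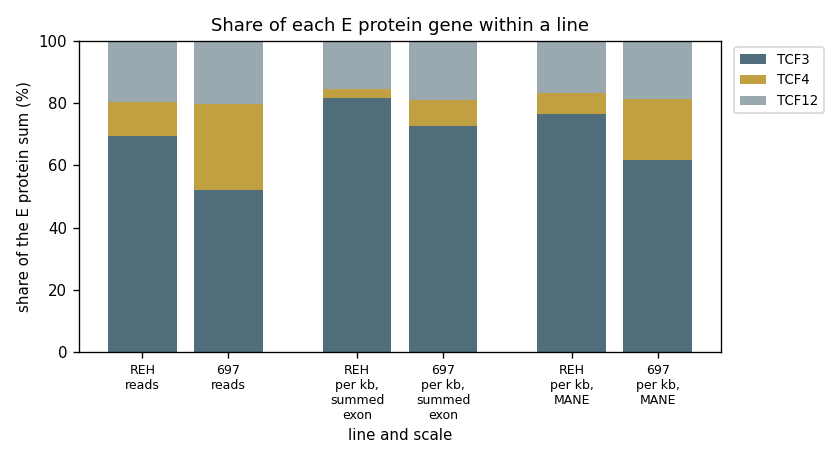
Stacked bars give the share of TCF3, TCF4 and TCF12 in the E protein sum (percent, y axis) for each line, as reads, per kb of summed exon and per kb of the MANE Select transcript. The TCF4 band is wider in 697 than in REH on each scale, 27.9% against 10.6% of reads, and the TCF3 band is narrower.

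ID3, an inhibitor induced in lymphocytes by antigen receptor and TGF-beta family signals, made up nearly the whole ID pool. It lies on chromosome 1 (23557926 to 23559501, minus strand) and had 1651 reads (32.8 CPM) in REH and 4324 reads (117 CPM) in 697. The 697 level was 3.56-fold higher, a log2 ratio of -1.83 (interval -1.92 to -1.75). ID3 gave 92.3% of ID reads in REH (91.0% to 93.5%) and 95.7% in 697 (95.1% to 96.3%). Per kb of summed exon it stood at percentile 86.8 of protein-coding genes in REH and 97.1 in 697.

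ID2, the inhibitor that innate lymphoid and NK cells depend on, was low and similar in both libraries. It lies on chromosome 2 (8678845 to 8684461, plus strand), with 125 reads (2.49 CPM) in REH and 83 reads (2.25 CPM) in 697. Its log2 ratio was 0.14, and the interval (-0.27 to 0.56) included 0. ID1, a classical target of bone morphogenetic protein (BMP) signals on chromosome 20 (31605283 to 31606515, plus strand), had 13 reads (0.259 CPM) in REH and 38 reads (1.03 CPM) in 697, a log2 ratio of -1.96 with a wide interval of -3.02 to -1.05. On either strand column alone, ID1 gave -0.93 and -2.92, so the size of its difference rests on few reads. ID4, which is often silenced in leukemia, lies on chromosome 6 (19837370 to 19842197, plus strand). No ID4 read was found in REH, against 71 reads (1.92 CPM) in 697. A floor of 3 reads is 0.168% of the 1789 ID reads of REH, and the upper limit of the Clopper-Pearson interval is 0.206%. Set against this floor of 3 reads in the REH library, ID4 was at least 32.2-fold higher in 697, while the wider counting interval of its log2 ratio ends at -4.67, a smaller difference.

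The sequences before the start sites of ID3 and ID4 are shown because ID3 gives most of the difference in ID reads and ID4 had reads in 697 alone. Each is the 250 bases before the RefSeq start (GRCh38.p14), 5′ to 3′ on the strand of the gene, for ID3 chr1:23559502-23559751 (minus strand) and for ID4 chr6:19837120-19837369 (plus strand). Capitals mark matches to CAGCTG or CAGGTG, both E-box forms, to GGCGCC, a BMP response element, and to TATAA, the core of a TATA box, all searched on both strands.
ID3: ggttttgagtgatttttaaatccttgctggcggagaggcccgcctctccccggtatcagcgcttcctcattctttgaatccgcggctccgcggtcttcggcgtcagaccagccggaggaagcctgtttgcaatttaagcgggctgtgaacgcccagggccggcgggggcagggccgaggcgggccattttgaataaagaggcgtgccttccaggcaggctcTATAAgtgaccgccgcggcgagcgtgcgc
ID4: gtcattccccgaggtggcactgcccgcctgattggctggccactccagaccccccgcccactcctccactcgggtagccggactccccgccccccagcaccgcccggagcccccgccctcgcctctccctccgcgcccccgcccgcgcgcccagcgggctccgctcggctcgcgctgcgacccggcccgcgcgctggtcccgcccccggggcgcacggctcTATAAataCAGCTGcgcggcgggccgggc

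Both hold TATAA on the gene strand beginning 29 bases before the start, and ID4 holds a CAGCTG E-box beginning 21 bases before it, downstream of its TATAA. Over the 35116 promoter windows of the same length in the RefSeq table, 18.9% hold TATAA, 14% CAGCTG, 17.5% CAGGTG and 16.4% GGCGCC. ID1 also holds TATAA, 31 bases before its start, and ID2 does not but holds a CAGCTG 205 bases before its start. Among the E protein genes, the window of TCF3 holds none of these motifs, 2 of 10 windows of TCF4 hold TATAA, and 1 of 5 windows of TCF12 holds GGCGCC. These matches describe the reference sequence and say nothing about factor binding in either line.

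Ordered by level per kb of summed exon, REH ran TCF3, ID3 (22.0 CPM per kb), TCF12 (20.3), TCF4 (3.51), ID2 (1.12), ID1 (0.210) and ID4 (0), with no overlap between the counting intervals of neighbours. The order in 697 was the same, with TCF3 at 111, ID3 at 78.2, TCF12 at 29.2, TCF4 at 13.05, ID2 at 1.02, ID1 at 0.834 and ID4 at 0.496 CPM per kb. There the intervals of ID2 (0.809 to 1.26) and ID1 (0.590 to 1.14) overlapped, as did those of ID1 and ID4 (0.388 to 0.626). Per kb of the MANE Select transcript TCF4 (47.3) passed TCF12 (45.2) in 697 and stayed below it in REH (12.7 and 31.3). Per kb of summed exon ID3 was thus the member nearest to TCF3 in both lines, and TCF3 exceeded it 1.42-fold in 697 and 4.80-fold in REH.

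**Figure D3:**
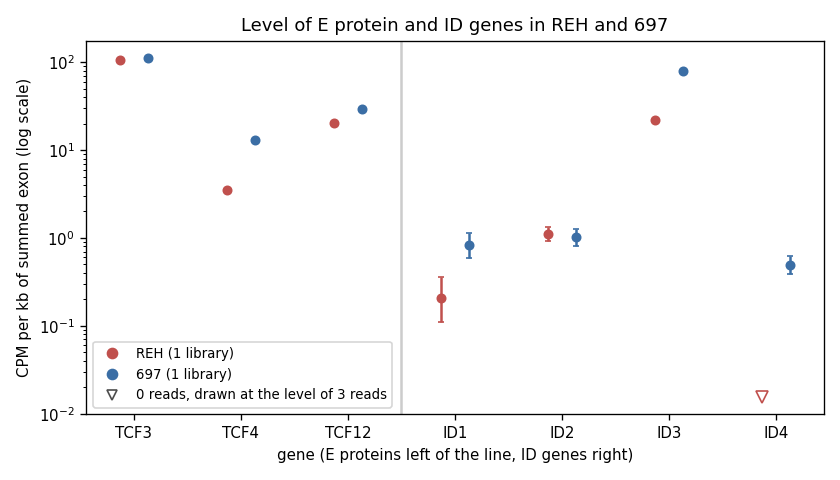
Level of each gene in CPM per kb of summed exon (log axis) in the REH and 697 libraries, with 95% Poisson counting intervals, which are smaller than the points for genes with many reads. TCF3 lies near 100 in both lines, ID3 is at 22.0 in REH and 78.2 in 697, and ID4, with 0 reads in REH, is drawn there at the level of 3 reads.

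Set against ID3 within each library, TCF4 kept its proportion while TCF3 and TCF12 did not. TCF4 reads outnumbered ID3 reads 3.12 to 1 in REH and 3.25 to 1 in 697, a log2 difference of -0.06 whose interval (-0.15 to 0.04) included 0. TCF3 outnumbered ID3 20.4 to 1 in REH and 6.05 to 1 in 697, a log2 difference of 1.75 (1.67 to 1.84). For TCF12 the ratios were 5.82 and 2.36, a log2 difference of 1.30 (1.21 to 1.40). These differences between lines are the same per kb, because gene length cancels.

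With TMM scaling, 6 of the 7 members had a log2 ratio below 0 and ID2 alone had a ratio above 0, with a median of -1.83 against 0.05 over all 19145 genes compared. The share of all genes below 0 was not taken, so the count by direction is no result about the members. Of the 7, ID4 alone passed a log2 ratio of 2 in size. A ratio of that size was found for 20.7% of all genes compared, with 12.5% higher in REH and 8.15% higher in 697, so 1 of 7 lies near the background. TCF4, ID1 and ID3 were just short of the threshold, and ratios as low as that of ID3 were found for 9.02% of all genes. Without TMM scaling the median of all genes shifted by 0.31 on the log2 scale, and TCF3 was then at 0.23, TCF4 at -1.59, TCF12 at -0.22 and ID3 at -1.53.

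**Figure D4:**
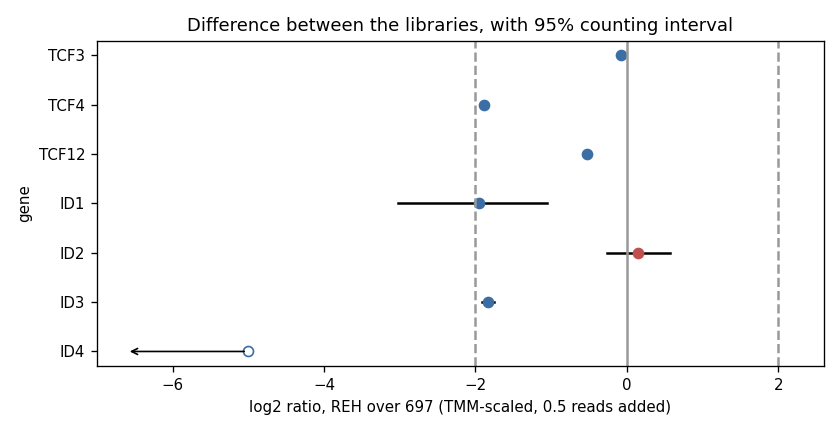
Log2 ratio of REH over 697 for the 7 genes (TMM-scaled CPM, 0.5 reads added), with lines for the 95% counting interval and dashed lines at a log2 ratio of 2 in size. ID4 is drawn as an open point at its bound against 3 reads, with an arrow towards larger differences; TCF4, ID1 and ID3 gather between -1.96 and -1.83.

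The 10 annotated genes that overlap a member had at most 18 reads in a library, including ID2-AS1 (7 reads in REH, 2 in 697), the lncRNA LNC-LBCS at ID4 (0 and 8) and TCF4-AS1 (0 and 1). Reads in bases shared by genes were counted for neither gene, and how many member reads were lost in this way was not measured. Such ambiguous reads were 4.58% of all reads in REH and 4.41% in 697. The processed pseudogenes TCF3P1 (0 and 2 reads) and ID2B (0 and 0) were nearly empty, but reads matching several copies were not counted. Libraries were labelled as stranded, yet 50.1% of strand-assigned gene reads in REH and 50.2% in 697 fell on the strand of the gene, so antisense reads within member exons cannot be separated.

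The other genes of the pathway were taken from 5 lists, beginning with the bHLH partners with which E proteins dimerize. Of 46 listed, 45 were matched and 11 had at least 10 reads in a library. Of these, 5 were higher in REH and 0 in 697 at the threshold (12.5% and 8.15% of all genes compared), with a median log2 ratio of 1.97. Most of the 5 entered the comparison through REH alone, with fewer than 10 reads in 697. Their high ratios are in part set by that filter, so the count and the median are no result about the list. The partners compared were mainly sparse: only NEUROG2, a neuronal bHLH gene, passed with at least 100 reads (144 in REH, 1 in 697, interval of the log2 ratio 4.22 to 12.04). LYL1, a blood bHLH gene that pairs with E proteins, was the most abundant partner (5154 and 1108 reads, 103 and 30.0 CPM, log2 ratio 1.77), and its relative TAL1 had 0 reads in both. Those last genes fall outside the naming rule and were chosen after their values were seen.

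Among 8 cofactors, 7 were compared, with a median log2 ratio of 0.71. Of these, 1 passed the threshold, higher in REH, which is near the 12.5% of all genes compared. This was CBFA2T3, an ETO-family corepressor that binds E proteins, with 26271 reads (523 CPM) in REH and 1801 reads (48.7 CPM) in 697 (log2 ratio 3.42, interval 3.35 to 3.49). Its relative RUNX1T1 had 0 reads in both lines. None of the 4 genes that act on the stability of ID or E proteins, USP1, FZR1, HUWE1 and SKP2, passed the threshold, and their median was -0.10. RUNX1T1 and these 4 genes are also named outside the rule.

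Of 25 genes of the BMP, TGF-beta and EGR routes that act upstream of ID genes, 21 were compared, with 3 higher in REH, 4 higher in 697 and a median log2 ratio of -0.65. Over all genes compared 12.5% were higher in REH and 8.15% in 697, so the REH count is near the background. BMP4 entered the comparison through 697 alone, and BMPR1B through REH alone. The counts in both directions rest on few genes and are in part set by the read filter. They are therefore no result about the list. Higher in 697 were SMAD9, a signal transducer of BMP receptors (139 and 1566 reads, log2 ratio -3.93, interval -4.20 to -3.69), and BAMBI, a decoy receptor that dampens these signals (119 and 1605 reads, -4.19, interval -4.48 to -3.93). EGR2, a transcription factor induced by antigen receptor signals, had 28 and 124 reads (-2.57, interval -3.24 to -1.99). Higher in REH were the ligand BMP2 (1237 and 156 reads, 2.54, interval 2.30 to 2.79) and the receptor BMPR1B (265 reads in REH and 1 in 697, interval 5.12 to 12.91). Ligands and receptors lay in both directions. The ligand BMP4 was higher in 697, with 0 reads in REH and 27 in 697 (the interval of its log2 ratio ends at -3.22), and the receptor BMPR2 had 1900 and 3165 reads (-1.18) without passing the threshold, both named after their values were seen.

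Of 19 lymphoid genes known as E protein targets, all were compared, with 1 higher in REH, 2 higher in 697 and a median log2 ratio of -0.23. These counts are no result about the list beside the 12.5% and 8.15% of all genes compared. VPREB1 was higher in 697, with 3 reads in REH and 10039 in 697 (interval of the log2 ratio -14.43 to -10.60), as was IRF8, a B-cell and myeloid transcription factor (320 and 953 reads, -2.02, interval -2.21 to -1.83). CD79B, the signalling chain of the B-cell receptor, was higher in REH, at 24198 and 4443 reads (481 and 120 CPM, interval of the log2 ratio 1.95 to 2.05), and lay on the threshold, below which it fell with DESeq2 size factors (1.97). The remaining 16 genes did not pass, among them EBF1, the B-lineage factor acting beside TCF3 (359 and 328 CPM, log2 ratio 0.13), and RAG1, the recombinase gene (1535 and 577 CPM, 1.41), both named after their values were seen.

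**Figure D5:**
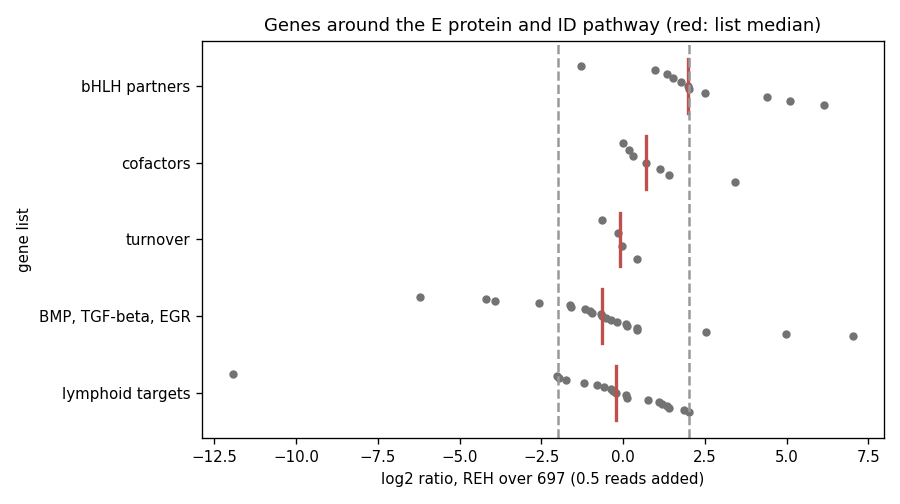
Each point is a gene with at least 10 reads in a library, placed by its log2 ratio of REH over 697 (x axis, 0.5 reads added) in 5 lists of pathway genes; red lines are list medians and dashed lines a log2 ratio of 2 in size. The bHLH partners lie mostly to the right (median 1.97), the lymphoid targets spread around 0 (median -0.23) with VPREB1 far to the left. Most bHLH partners shown reached 10 reads in REH alone, so their place is in part set by that filter.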

How the data were processed

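Total RNA from the lines REH and 697 gave 1 sequencing library each. The labels name ribodepletion and the study's methods poly-A purification, and which was used, and so which transcripts the reads cover, is not settled here. Per the study's methods and the deposited file layout, the authors aligned reads with STAR and counted uniquely mapped reads per gene, and the deposited values are raw read counts, neither normalized nor filtered. The methods name hg38 and the submitters' processing notes hg19. The annotation used for counting is not given in the sources used here. Reads were taken from the count column that ignores strand. Symbols, positions and exon lengths came from GENCODE 44 (GRCh38) by gene ID (51996 of 57773 matched), and the promoter sequences from RefSeq (GRCh38.p14).

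The comparison covered 19145 genes, those that reached 10 reads in either library. Totals were scaled with TMM in edgeR 4.0.16 (factors 1.11 for REH and 0.899 for 697). Log2 ratios are REH over 697 after adding 0.5 reads. The threshold for calling a gene higher in a line was 2 on this log2 scale. Intervals are 95% exact binomial (Clopper-Pearson), Poisson or conditional odds ratio intervals and cover counting error only. At 3 reads, the floor was 0.0597 CPM in REH and 0.0812 CPM in 697. The study's DESeq2 test needs replicates, so no test between lines was run. The log2 ratio of a gene and its counting interval were tested on simulated Poisson counts. The E protein to ID ratios and the shares were not part of that test.

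The members and gene lists were chosen with earlier results of these data known. Genes named from a list were those past the threshold with at least 100 reads in a library, up to 6 per direction, beside HLF. A further gene that the rule names on its own is not reported here. Other genes named from the lists, among them LYL1, TAL1, RUNX1T1, the 4 turnover genes, BMP4, BMPR2, EBF1 and RAG1, fall outside the rule and were chosen after their values were seen. Genes were not ranked by likeness of pattern, since 2 libraries give each gene only 1 ratio. Alternatives were DESeq2 1.42.0 size factors, unscaled totals, totals without mitochondrial genes (3.11% of gene reads in REH, 6.13% in 697), minimum read numbers of 1 and 50, TMM factors taken over coding genes, 5 added reads, a threshold of 1, each strand column, other gene lengths and sums without a member. Python 3.11.15 with scipy 1.17.1 and R 4.3.3 were used.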

Additional observations from a re-analysis of the deposited data

How the results depend on the processing

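The use of the MANE Select transcript, of protein-coding TMM factors, of sums without a member and of the log2 difference per kb was chosen after seeing the data. No paired analysis was possible because there is a single library for REH and for 697, and leaving out a replicate was not possible either.

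The higher E protein to ID ratio of REH kept its direction in all settings run. Per kb of the longest transcript the ratio was 5.14 in REH and 1.91 in 697, per kb of summed exon 5.54 and 1.91 (log2 difference 1.54), and per kb of the MANE Select transcript 5.05 and 1.91 (1.40). Without TCF4 the ratio was 24.2 and 8.06 (1.59), without ID3 351 and 263 (0.42), and without TCF3 8.25 and 5.37 (0.62). Without TCF3 and per kb of summed exon it was 1.02 and 0.525 (0.96), and per kb of the MANE Select transcript 1.20 and 0.732 (0.71). In 697 the ID reads per kb thus exceeded those of TCF4 plus TCF12. The TCF3 share of E protein reads, per kb of summed exon, of the longest and of the MANE Select transcript, was 81.6%, 76.5% and 76.3% in REH and 72.5%, 62.2% and 61.8% in 697, where the strand columns gave 52.7% and 51.1%. The ID3 share of ID reads on the same scales was 94.3%, 96.0% and 94.1% in REH and 97.1%, 98.1% and 97.4% in 697.

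At a threshold of 1, 4 members passed, and 2 passed in one strand column, where ID1 was at -2.92. Over the 5 lists, 10 genes higher in REH became 5 with 5 reads added, and 6 genes higher in 697 became 10 with a minimum of 1 read. At a threshold of 1 these numbers were 21 and 14. The share of all genes past a threshold of 1 was not taken, so the counts of members and list genes there are no result about them. With 5 reads added, ID4 was at -4.37. The ratio of TCF3 lay between -0.11 and 0.23 over the scalings, so its sign is not set by these data. ID1 and ID4 are limited by depth, with 13 and 0 reads in REH.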
